A study of Mus musculus with 200 samples.

Results

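Retinoid metabolism and binding genes were followed in single mouse embryos at E11.5. The set holds 9 of the 22033 genes in the tables, taken by symbol: *Retsat*, *Rbp4*, *Crabp1*, *Crabp2*, *Aldh1a2*, *Aldh1a3*, *Cyp26a1*, *Cyp26b1* and *Rdh10*. *Retsat* was included because its reads lie mostly on the Cast allele, so the distance of its allele fraction from 0.5 and its level by genotype are given as descriptions, with no test. Comparisons that did not choose it, such as those by somite number and by cross, are tested. The other 8 were chosen by name and function, with earlier results of these data known.

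Retinol (vitamin A) travels in blood bound to the carrier that *Rbp4* encodes. Inside cells it is oxidised to retinal by *Rdh10* and then to retinoic acid by the retinaldehyde dehydrogenases *Aldh1a2* and *Aldh1a3*, while the cytochromes *Cyp26a1* and *Cyp26b1* break retinoic acid down, so that making and clearing it in separate places gives the embryo its gradients. *Crabp1* and *Crabp2* encode cytosolic proteins that bind retinoic acid, and *Retsat* encodes an enzyme that saturates a double bond of retinol. At the stage studied, retinoic acid acts in hindbrain, spinal cord, limb, eye and heart.

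The embryos came from crosses of C57BL6/J (B6) and Castaneus (Cast) mice, with the mother named first throughout. The F1 embryos, all heterozygous at every autosomal gene, were 8 from B6 × Cast and 8 from Cast × B6, with 2 litters of each cross. The N2 embryos, from backcrosses of F1 animals to B6, are heterozygous (B6/Cast) or homozygous (B6/B6) at any given gene, and 154 of them had genotypes, 89 with a B6 mother in 17 litters and 65 with an F1 mother in 12 litters. All were whole embryos at Embryonic day 11.5, untreated and freed of extra-embryonic tissue, so every value is a mean over all organs. A change in a whole embryo cannot be told apart between fewer cells of a type and less RNA per cell. Somite number, a finer measure of age, was recorded for 147 of the N2 embryos and ran from 42 to 57 in those with B6 mothers and from 43 to 54 in those with F1 mothers.

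Expression was measured by 3SEQ, which reads the 3′ ends of polyadenylated RNA, and is given as reads per 1000000 reads on genes (RPM). The F1 embryos had 15703888 to 38234229 reads each and the N2 embryos 245220 to 5370322, with a median of 2297773. Thus 1 read in a median N2 embryo is well under 1 RPM. The B6 allele fraction (BAF) is the share of allele votes, reads placed on 1 allele by their SNPs, that went to B6, and a value of 0.5 means equal alleles. Across the N2 embryos 10007 genes averaged at least 5 RPM, and 6 members were among them. *Aldh1a3*, *Cyp26a1* and *Rdh10* fell below that level and were left out of the main N2 tests of expression. All 4 markers of skeletal muscle, all 5 of primitive erythroid cells and 6 of 7 of liver and yolk sac endoderm were present at 1 RPM or more, whereas 0 of 5 markers of trophoblast and decidua were.

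4 of the 14 sequencing lanes, K to N, stood apart from the rest. Their 45 embryos (25 with B6 mothers, 20 with F1 mothers) held 1584 genes, 15.8% of those at 5 RPM, at a mean at least 4 times that of the other 109 N2 embryos. 13 of the 14 lanes hold embryos of 1 kind of mother. Of the members at 5 RPM, *Aldh1a2* and *Cyp26b1* were among those 1584 genes, so the lanes come first.

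*Aldh1a2* averaged 33.8 ± 22.6 RPM (SD, n = 45) in lanes K to N and 3.99 ± 3.76 RPM (n = 109) in the other lanes, a ratio of 8.48. *Cyp26a1* averaged 3.42 ± 2.85 RPM against 0.390 ± 0.616, a ratio of 8.76. For *Cyp26b1* the means were 35.8 ± 15.0 and 7.73 ± 8.08 RPM, and for *Rdh10* they were 5.80 ± 2.96 and 1.40 ± 1.38 RPM. *Rbp4* was at 63.6 ± 23.2 RPM in K to N and 24.9 ± 16.8 RPM elsewhere. *Crabp1* (652 against 704 RPM), *Crabp2* (435 against 503 RPM) and *Retsat* (32.8 against 33.99 RPM) had like means on both sides. Lane J, the shallowest of the 14 with a median of 577807 reads, had a median of 30.7 RPM of *Cyp26b1*, near lanes K to N.

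In the same order, lane accounted for 72.5% of the variance of log-scale expression of *Aldh1a2*, 62.8% for *Cyp26a1*, 79.9% for *Cyp26b1*, 56.7% for *Rdh10* and 66.1% for *Rbp4*, beside a median of 57.9% over the genes at 5 RPM. It accounted for 18.6% of that of *Retsat*, which is the lowest of the 9, and for 39.5% to 59.8% of that of *Aldh1a3*, *Crabp1* and *Crabp2*. The 16 F1 embryos, sequenced on other runs, held medians of 7.22 RPM of *Aldh1a2* and 18.1 RPM of *Cyp26b1*, between the means of the N2 lane groups. The part that lane plays in each result is given below as the value with lane removed or without lanes K to N.

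**Figure D1:**
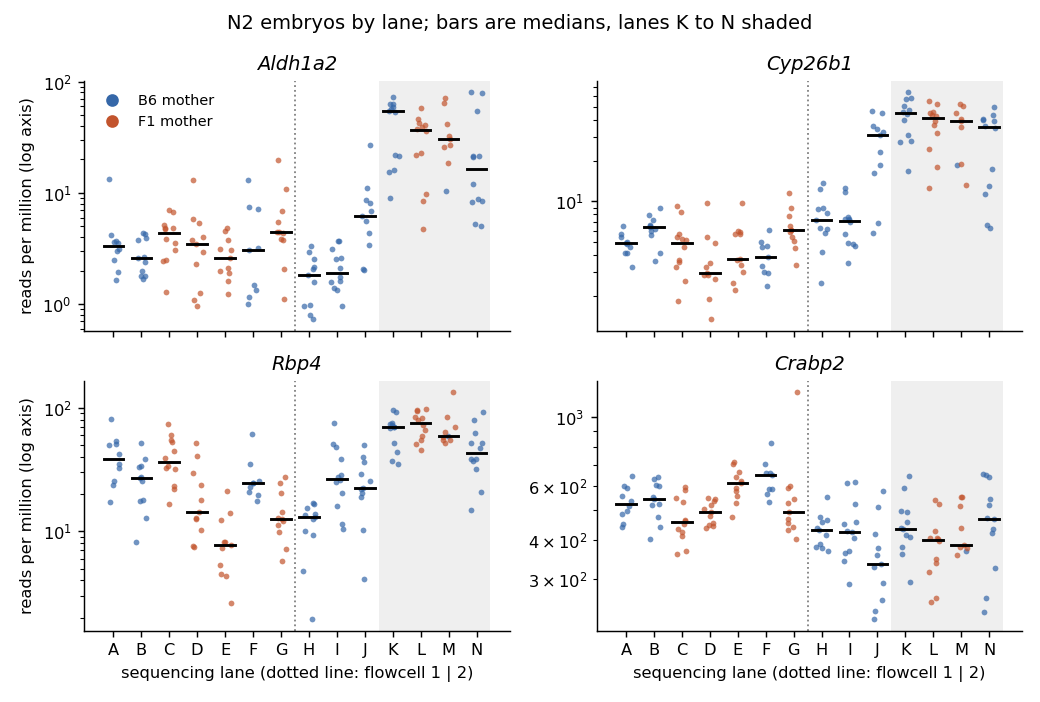
Expression of *Aldh1a2*, *Cyp26b1*, *Rbp4* and *Crabp2* (RPM, 1 panel per gene) on log axes in the N2 embryos, arranged by sequencing lane A to N. Each point is an embryo, coloured by mother, bars are lane medians, and the shaded lanes are K to N, where *Aldh1a2*, *Cyp26b1* and *Rbp4* are higher and *Crabp2* is not.

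Promoter sequences, credited to RefSeq on build GRCm38.p6, were found for 6 of the 9 members, in 7 windows since *Rbp4* has a pair. *Crabp2*, *Aldh1a3* and *Rdh10* had no entry. The 250 bases before the start of *Retsat* are shown because this gene carries the allele difference, and those of *Cyp26a1* because its promoter holds a repeat of the kind that retinoic acid receptors bind. Both genes lie on the forward strand, and the windows are chr6:72598352-72598601 and chr19:37697558-37697807. Capitals mark TATAAA in *Retsat* and a direct repeat in *Cyp26a1*.
Retsat: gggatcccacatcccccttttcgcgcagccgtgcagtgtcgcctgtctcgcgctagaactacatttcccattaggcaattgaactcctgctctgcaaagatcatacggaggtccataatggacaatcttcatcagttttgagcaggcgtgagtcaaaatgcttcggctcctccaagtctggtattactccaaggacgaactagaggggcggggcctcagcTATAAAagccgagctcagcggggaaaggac
Cyp26a1: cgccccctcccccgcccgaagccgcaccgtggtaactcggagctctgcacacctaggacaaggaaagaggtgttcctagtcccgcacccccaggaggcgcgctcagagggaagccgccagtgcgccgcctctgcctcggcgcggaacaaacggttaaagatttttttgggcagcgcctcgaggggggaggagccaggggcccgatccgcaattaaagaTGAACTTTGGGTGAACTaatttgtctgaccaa

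The repeat search took any 2 half-sites in the same direction on either strand, separated by 1, 2 or 5 bases, where a half-site is AGGTCA or its variant AGTTCA, or with G as its leading base GGGTCA or its variant GGTTCA. With a spacing of 5 it matched 32 of 32851 promoter windows (0.0974%). The match in *Cyp26a1*, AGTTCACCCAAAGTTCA on the strand opposite to the gene, covers bases 32 to 16 before the start. Spacings of 1 and 2 matched 73 and 88 windows, none of them of a member. TATAAA was present on either strand in 13.6% of all windows and in 4 of the 7 member windows, those of *Retsat* (30 to 25 bases before the start), *Cyp26b1*, *Cyp26a1* (after the start, outside the stretch shown) and 1 of the *Rbp4* windows. A match is a match of letters only.

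*Retsat* lies at chr6:72548469-72558408 on the forward strand of mm9. In F1 embryos its votes were 141.98 for B6 and 1091.47 for Cast, a pooled BAF of 0.115. By embryo the BAF ranged from 0.0610 to 0.200 in B6 × Cast, with a median of 0.0818, and from 0.0699 to 0.227 in Cast × B6, with a median of 0.189. Every F1 embryo lay far below 0.5 in both cross directions. In the 71 heterozygous N2 embryos 292.94 votes supported B6 and 2340.1 supported Cast, a BAF of 0.111, and all 38 of those embryos with at least 20 votes were below 0.5, from 0 to 0.214. Embryos genotyped as homozygous gave 683.41 votes for B6 and 6.97 for Cast, a BAF of 0.990, which measures the background of wrong votes.

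Few *Retsat* reads covered a usable SNP, and how many did varied by run. Votes made up 4.46% of reads in the F1 embryos, 42.4% in heterozygous embryos of lanes K to N and 21.7% in those of the other lanes, where the pooled BAF was 0.121 and 0.105. The share of informative reads thus differed between these groups far more than the BAF did.

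The level of *Retsat* followed its own genotype in the same direction. Homozygous embryos (n = 83) ranged from 0 to 22.8 RPM with a median of 11.7, and heterozygous embryos (n = 71) from 22.3 to 99.3 RPM with a median of 57.6. The means were 12.2 ± 4.39 and 58.7 ± 16.4 RPM, a ratio of 4.81. Only 1 heterozygous embryo, at 22.3 RPM, lay below the highest homozygous one, and among embryos with at least 1000000 reads the genotypes did not overlap (67 heterozygous, 74 homozygous). Homozygous and heterozygous means were 10.7 and 54.3 RPM with B6 mothers, and 14.1 and 65.4 RPM with F1 mothers. Without lanes K to N they were 11.7 and 58.4 RPM.

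Sharing the homozygous mean between its copies gives 6.10 RPM for a B6 copy and leaves 52.6 RPM for the Cast copy of heterozygous embryos, from which a BAF of 0.104 would follow, beside the 0.111 counted from votes. F1 embryos, with 1 copy of each, had 60.7 ± 9.20 RPM (n = 16), close to heterozygous N2 embryos. B6 × Cast embryos ranged from 58.0 to 79.2 RPM around a median of 61.997, and Cast × B6 embryos from 48.3 to 60.4 RPM around a median of 55.9. With lane, sex, somite number and 15 principal components removed, as in the tests below, the difference between genotypes was 1.76 on the log2(RPM + 1) scale (SE 0.0754).

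**Figure D2:**
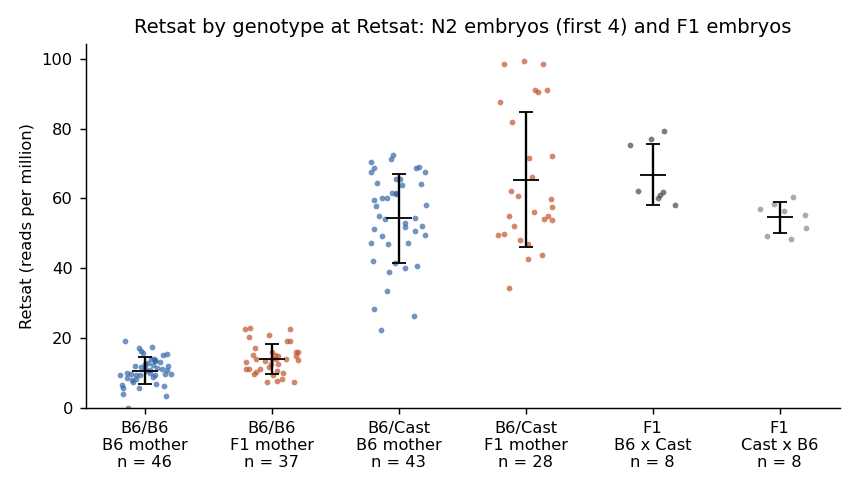
*Retsat* expression (RPM) in homozygous and heterozygous N2 embryos, split by mother, and in F1 embryos of each cross; each point is an embryo and bars are means with SD. Heterozygous embryos average 58.7 RPM against 12.2 RPM in homozygous ones, and the F1 embryos sit with the heterozygous group.

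The 3′ end of *Retsat* lies 18 bases from that of *Tgoln1*, a gene of the trans-Golgi network on the opposite strand, and whether reads were counted by strand is not given in the sources used here. *Tgoln1* had a BAF of 0.350 in F1 and 0.260 in heterozygous N2 embryos, on the same side as *Retsat*. Its level was 43.5 ± 36.5 RPM in embryos heterozygous at *Retsat* and 33.8 ± 33.9 RPM in homozygous ones, an adjusted log2 difference of 0.61 (q = 9.76e-12) that was also called by edgeR and DESeq2. Reads of one gene counted for the other cannot be told apart.

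The genotype at *Retsat* was then set against the expression of the other genes, to ask whether embryos with more *Retsat* differed elsewhere in the pathway. The test was a rank-sum test of log2(RPM + 1) after removal of lane, sex, somite number and 15 principal components, at a Benjamini-Hochberg q of 0.05. It called 64 of 9733 genes (0.658%), of which 53 lie on chromosome 6 among 469 tested there. None of the other 5 members above 5 RPM was called, nor any of 25 tested genes in lists of other retinoid pathway and response genes. Because the principal components can absorb a shift that many genes share, the fit with lane alone was also run, and it called none of the 5 either.

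*Rbp4* averaged 34.7 ± 23.2 RPM in embryos heterozygous at *Retsat* and 37.6 ± 27.9 RPM in homozygous ones, an adjusted log2 difference of -0.04 (95% interval -0.14 to 0.07, q = 0.902). *Crabp1* averaged 702 and 678 RPM, a difference of 0.03 (-0.02 to 0.07, q = 0.756). *Crabp2* averaged 485 and 482 RPM, a difference of -0.01 (-0.06 to 0.04, q = 0.968). For *Aldh1a2* the interval was wider, -0.15 to 0.12 around -0.01 (q = 0.823). These intervals bound the differences that the adjusted data allow. A p that misses the threshold does not show equal levels.

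*Cyp26b1* shares chromosome 6 with *Retsat*, and 149 of 154 embryos (96.8%) had the same genotype at both, so genotype at one cannot be separated from genotype at the other. Its difference by *Retsat* genotype was 0.06 (-0.06 to 0.18, q = 0.844). *Rbp4* and *Cyp26a1*, both on chromosome 19, had the same genotype in 153 of 153 embryos called at both, and *Crabp1* and *Aldh1a2*, on chromosome 9, in 142 of 154 (92.2%).

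The 3 genes on chromosome 6 with the smallest p were *Mthfd2*, a mitochondrial folate enzyme (log2 difference 0.82, q = 8.07e-17), *Rtkn* (-0.40, q = 2.52e-15), and *Fkbp9*, a peptidyl-prolyl isomerase of the endoplasmic reticulum (0.68, q = 1.35e-13). Off chromosome 6 the test called 11 of 9264 genes (0.119%), led by *Pdia2*, *6030468B19Rik*, *Pofut2*, *Lcn2* and *Tspo2*, all lower in embryos heterozygous at *Retsat* by 0.09 to 0.50 on the log2 scale. Of these, *Pdia2* had the smallest q (2.11e-04) and *Tspo2* the largest (0.0102). With edgeR and lane, 1 gene off chromosome 6 was called, with DESeq2 it was 2, and none of these 5 passed either (*Lcn2*, the lipocalin 2 gene, came nearest with adjusted p = 0.666 by edgeR and 0.635 by DESeq2).

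Allele fractions of the other members were tested over F1 and heterozygous N2 embryos together by the paired test on scaled votes. A gene was called at a Bonferroni p under 0.01 with a BAF outside 0.45 to 0.55, which 1714 of 9084 genes (18.9%) met. 5 members other than *Retsat* had enough votes, and none was called. Another 390 genes passed the p but stayed inside the window.

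*Crabp2* was 1 of those 390. It lies at chr3:87752588-87757298 on the forward strand and had the most votes of any member, 228964 in F1 embryos. BAF ranged from 0.516 to 0.538 over the F1 embryos, with a median of 0.527, and all 16 were above 0.5. In heterozygous N2 embryos it ranged from 0.474 to 0.718 around a median of 0.547, and 73 of 75 were above 0.5. The pooled value was 0.531 (Bonferroni-adjusted p = 1.33e-15), a small excess of the B6 allele seen in nearly every embryo. Taken alone, the N2 embryos gave 0.554 (adjusted p = 8.07e-12) and were past the window, in a fit that called 1472 of 9084 genes (16.2%).

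The F1 mean of *Crabp2*, 0.5264 ± 0.00614 (n = 16), lay below the N2 mean of 0.552 ± 0.0297 (n = 75), a difference of -0.0258 (two-sided permutation test, p = 1.4e-04, adjusted p = 5.6e-04 over the 4 tests of this kind). F1 reads were trimmed to a shorter length than N2 reads, which moves with this contrast, and its part was not tested. The *Crabp2* BAF was 0.551 in lanes K to N and 0.556 in the other lanes. For *Crabp1*, *Rbp4* and *Aldh1a2* the F1 and N2 means differed by -0.0175 (permutation test, adjusted p = 0.236), -0.0137 (0.549) and -0.0575 (exact test, 0.236).

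*Crabp1* lies at chr9:54612555-54620917 on the forward strand. It had a pooled BAF of 0.491 over 104 embryos, with 41785.5 votes for B6 and 44096.5 for Cast in F1 embryos and 20784.5 and 20712 in heterozygous N2 embryos. *Rbp4* (chr19:38191110-38199811, reverse strand) gave 0.520 in F1 and 0.531 in heterozygous N2 embryos. Its BAF was 0.566 in lanes K to N and 0.511 in the others, and the paired test gave an adjusted p of 1. *Aldh1a2* (chr9:71063596-71144050, forward strand) had 901 votes for B6 and 949 for Cast in F1 embryos, a BAF of 0.487. *Rdh10* (chr1:16095855-16123815, forward strand) had 561 and 431, a BAF of 0.566, with 12 of 16 F1 embryos above 0.5 and an adjusted p of 1 over all embryos.

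The remaining 3 members could not be tested. *Cyp26b1* (chr6:84521938-84543740, reverse strand) received 0 votes for either allele from 7744 reads in F1 embryos. *Aldh1a3* (chr7:73535778-73572403, reverse strand) received 62.97 votes in all F1 embryos and 1.99 in heterozygous N2 embryos. *Cyp26a1* (chr19:37772298-37776018, forward strand) received 55 and 17. With these numbers of votes a difference between alleles was not detectable for these genes.

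**Figure D3:**
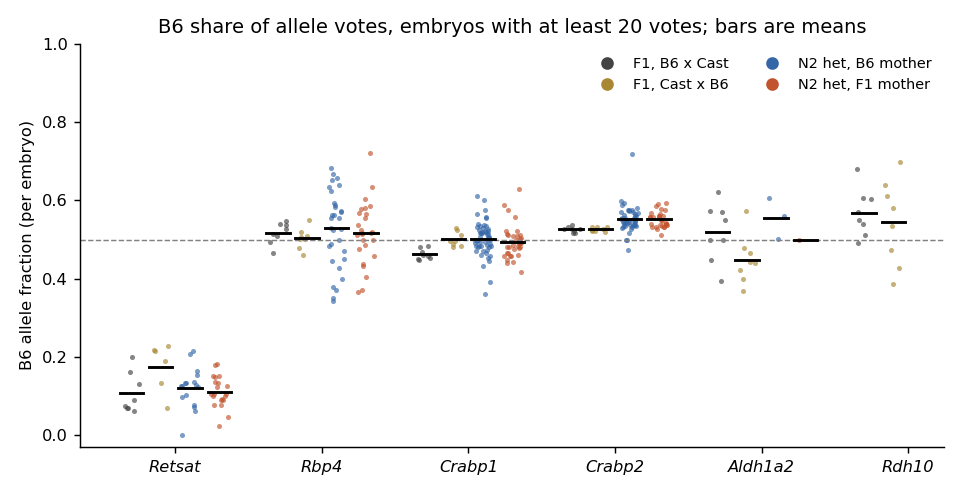
B6 allele fraction of the 6 members with allele votes, with a point for each F1 embryo and each heterozygous N2 embryo of at least 20 votes and a dashed line at 0.5. All *Retsat* points lie at or below 0.227, the 16 F1 points of *Crabp2* lie above 0.5, and the others scatter on both sides of 0.5.

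Against somite number, no BAF of the 4 members with enough embryos passed a q of 0.1, which 10 of 3342 genes (0.299%) did by Spearman correlation. Over 38 embryos, *Retsat* had rho = -0.18 (q = 0.843). *Crabp2* came nearest, with rho = 0.23 over 74 embryos (q = 0.544).

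Allele fractions were also compared between reciprocal crosses, since an imprinted gene changes allele with the direction of the cross. The comparison was made for the members only, so it has no share over all genes, and the F1 crosses also differ in age. Over 10 tests in F1 and N2 embryos, 1 passed. The *Crabp1* BAF was 0.463 ± 0.0136 (n = 8) in B6 × Cast and 0.501 ± 0.0182 (n = 8) in Cast × B6, a difference of -0.0384 (exact two-sided permutation test, p = 4.66e-04, adjusted p = 0.00466). The B6 × Cast embryos ran from 0.449 to 0.484 and the Cast × B6 embryos from 0.481 to 0.529, so the groups overlapped slightly. In heterozygous N2 embryos the means were 0.503 ± 0.0436 with B6 mothers and 0.494 ± 0.0435 with F1 mothers (permutation test, adjusted p = 0.805). With litters as the unit, 2 of each cross, the F1 difference was -0.0391 and the exact test gave an adjusted p of 0.952, a design too small to pass. *Retsat* differed by -0.0682 between the F1 crosses, over 8 and 6 embryos with at least 20 votes (exact test, adjusted p = 0.185). For *Aldh1a2* the F1 difference was 0.0712 over 8 and 8 embryos (exact test, adjusted p = 0.185).

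Expression by own genotype asked whether embryos with a Cast copy of a gene expressed it at another level, and 3521 of 9733 genes (36.2%) were called. Of the 5 tested members, *Crabp2* and *Crabp1* were called, a share of 2 in 5 that is near that background. *Retsat* was described above.

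*Crabp2* fell with a Cast copy, on the same side as its allele fraction. Heterozygous embryos (n = 75) ranged from 222 to 1204 RPM around a median of 438, and homozygous embryos (n = 79) from 234 to 822 RPM around a median of 526. The means were 456 ± 131 and 509 ± 116 RPM, a ratio of 0.895, and the groups overlapped over almost their whole range. The adjusted log2 difference was -0.08 (SE 0.0240, q = 0.00251). The RPM means over all lanes give a BAF of 0.558 for heterozygous embryos, beside the 0.554 counted. The same calculation gave 0.564 with B6 mothers and 0.549 with F1 mothers, beside 0.558 and 0.549 counted. It gave 0.513 on flowcell 1 and 0.580 on flowcell 2. Without lanes K to N it gave 0.530, beside 0.556 counted. The calculated value thus varied more between flowcells than between mothers. With edgeR and lane the difference was -0.16 (unadjusted p = 0.00834). Its adjusted p was 1.00 by edgeR, but that was adjusted over all genes tested against the *Crabp2* genotype, not over tests of each gene by its own genotype, so the calls of these fits are not like for like.

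*Crabp1* was lower by 0.07 in heterozygous embryos after adjustment (SE 0.0235, q = 0.0266), although the unadjusted means were 701 ± 221 RPM in 88 heterozygous and 673 ± 217 RPM in 66 homozygous embryos. With no covariates the difference was 0.07 in the other direction (q = 0.705), with edgeR and lane it was 0.03 (edgeR adjusted p = 0.888), with lane alone it was -0.01 (q = 0.775), and with litter as a block it was 0.0089 (q = 0.891), so the direction turned with the fit. *Rbp4* had a difference of -0.10 (q = 0.159). Its means were 27.6 RPM in heterozygous and 23.8 RPM in homozygous embryos on flowcell 1, and 35.7 and 54.6 RPM on flowcell 2, where lanes K to N lie. Without those lanes they were 25.3 and 24.5 RPM. *Cyp26b1* (0.09, q = 0.329) and *Aldh1a2* (-0.02, q = 0.712) were not called.

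**Figure D4:**
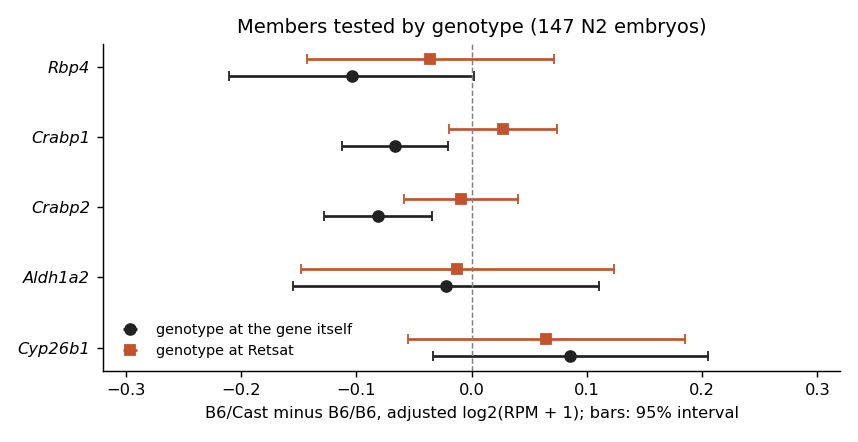
Adjusted log2 difference between heterozygous and homozygous N2 embryos with 95% intervals for the 5 members tested, by a gene's own genotype (circles) and by *Retsat* genotype (squares). The differences lie between -0.10 and 0.09, and the own-genotype intervals of *Crabp2* and *Crabp1* lie below 0.

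Somite number asked which members changed as the embryos grew, and 2206 of 10007 genes (22%) were called by Spearman correlation at a q of 0.05. Of the 6 members tested, *Crabp2* was called, and it fell. Embryos of at most 45 somites averaged 589 ± 114 RPM (n = 21), those of 46 to 48 somites 537 ± 140 RPM (n = 45), those of 49 to 50 somites 439 ± 74.9 RPM (n = 33), those of 51 to 52 somites 427 ± 100 RPM (n = 34), and those of at least 53 somites 377 ± 80.7 RPM (n = 14). The means thus fell at every step, by more than the spread within the youngest bin over the whole course.

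Across 147 embryos Spearman's rho for *Crabp2* was -0.56 and Pearson's r was -0.51 (permutation p = 1e-05 each, the smallest that 100000 permutations can give). Leaving out the 2 embryos of most extreme somite number gave r = -0.51. With lane removed rho was -0.52, on flowcells 1 and 2 it was -0.70 and -0.52, with B6 and F1 mothers it was -0.56 and -0.57, over the means of 29 litters it was -0.68, and without lanes K to N it was -0.71. The fall was present in each of these divisions of the embryos.

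*Crabp1* had rho = -0.19 (permutation p = 0.0207) and r = -0.21 (permutation p = 0.0115), or -0.19 without the 2 most extreme embryos. Over all genes its q was 0.0775. With lane removed rho was -0.33 and passed (q = 0.00265), in a fit that called 1151 of 10007 genes (11.5%), and without lanes K to N it was -0.10 and did not (q = 0.512). With lane not removed the sign turned with the mother, at rho = -0.32 with B6 mothers and 0.12 with F1 mothers. With lane removed both values were negative, at -0.405 and -0.140. On flowcells 1 and 2 rho was -0.00044 and -0.32. Its mean was 792 ± 237 RPM at 45 somites or fewer and 573 ± 155 RPM at 53 or more.

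*Rbp4* had rho = 0.18 (permutation p = 0.0283) and r = 0.15 (permutation p = 0.0619), or 0.18 without the 2 most extreme embryos. Its q over all genes was 0.0960. It passed with lane removed (rho = 0.30, q = 0.00633) and without lanes K to N (rho = 0.33, q = 0.00726), where 1480 of 10007 genes (14.8%) were called. With lane not removed, rho was -0.05 with B6 mothers and 0.52 with F1 mothers (q = 0.711 and 6.72e-04). On flowcells 1 and 2 it was 0.46 and -0.04, so the rise was not seen in each of these divisions of the embryos. With lane removed, both mothers gave a positive value, 0.326 with B6 mothers and 0.261 with F1 mothers. The carrier is made mainly in liver. Mean *Rbp4* was 26.5 ± 18.5 RPM at 45 somites or fewer and 44.9 ± 30.2 RPM at 49 to 50. It was lower again at 53 or more, at 31.7 ± 22.3 RPM. The summed level of the 7 liver and yolk sac endoderm markers went from 723 ± 286 RPM at 45 somites or fewer to 1388 ± 481 RPM at 53 or more. The bins pool all lanes, and the marker sum was taken for the youngest and oldest bins only, so the courses were not compared step by step. The correlation of *Rbp4* with that sum was 0.31 over 147 embryos, and 0.67 with lane removed. The part of the amount of liver in the result was not tested.

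*Retsat* (rho = 0.04, q = 0.731), *Aldh1a2* (-0.04, q = 0.787) and *Cyp26b1* (0.05, q = 0.713) were not called over all embryos. *Cyp26b1* passed without lanes K to N (rho = 0.28, q = 0.0305). The fits within B6 and within F1 mothers called 5161 and 2316 of 10007 genes. In them the sign for *Aldh1a2* turned, at rho = -0.33 in 85 embryos with B6 mothers (q = 0.00584) and 0.43 in 62 with F1 mothers (q = 0.00687). Lane and mother are nearly confounded. With lane removed in a test of the difference itself the 2 values were -0.08 and 0.26, a difference that did not pass (permutation p = 0.0568, adjusted p = 0.503 over 16 tests). No other difference between mothers in the effect of somite number, own genotype or *Retsat* genotype passed in those 16 tests, of which 0.503 was the lowest adjusted p.

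*Cyp26a1* was too low for the main test, with 0 reads in 70 of 154 embryos. Its mean was 2.22 ± 3.49 RPM in the youngest bin, 1.51, 1.25 and 0.877 RPM in the next 3, and 0.551 ± 1.04 RPM in the oldest. Spearman's rho was -0.25 (permutation p = 0.00224) and r was -0.25 (permutation p = 0.00169), or -0.23 without the 2 most extreme embryos. It was called at a minimum of 1 RPM (q = 0.0190) and by edgeR with lane, where it changed by -0.19 log2 units per somite (adjusted p = 0.00819). With F1 mothers alone rho was -0.0014, beside -0.48 with B6 mothers.

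**Figure D5:**
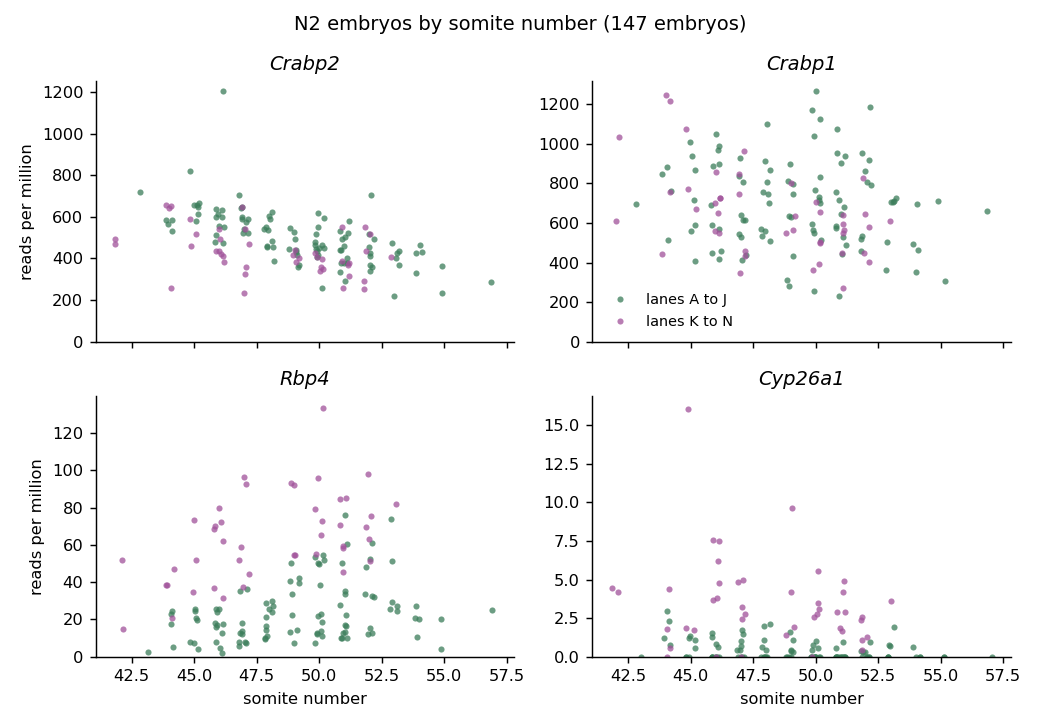
Expression of *Crabp2*, *Crabp1*, *Rbp4* and *Cyp26a1* (RPM, 1 panel per gene) against somite number in 147 N2 embryos. Each point is an embryo, with lanes K to N in a different colour from lanes A to J. *Crabp2* falls from a mean of 589 RPM at 45 somites or fewer to 377 RPM at 53 or more, and *Cyp26a1* is mostly near 0 outside lanes K to N.

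The mother's genotype was compared by the Mann-Whitney test at a Bonferroni p under 0.01, which 490 of 9733 genes (5.03%) passed, and no member did. *Crabp1* came nearest. It averaged 740 ± 230 RPM with B6 mothers (n = 89) and 619 ± 183 RPM with F1 mothers (n = 65), a ratio of 1.20 (unadjusted p = 1.02e-04, Bonferroni-adjusted p = 0.996). It passed by edgeR (adjusted p = 0.00883, in a fit that called 25.1% of genes) and by DESeq2 (0.00409). It did not with lanes as a block in limma (0.552), and on litter means it was 710 ± 190 RPM in 17 litters against 664 ± 167 RPM in 12 (permutation test, adjusted p = 0.843). Mother and lane cannot be told apart here. The means of *Crabp2* were 476 and 493 RPM, those of *Rbp4* 35.5 and 37.2 RPM (a log2 ratio of 0.57 on flowcell 1 and -0.96 on flowcell 2, Bonferroni-adjusted p = 1 and 0.0207), those of *Retsat* 31.8 and 36.2 RPM, those of *Aldh1a2* 12.2 and 13.4 RPM and those of *Cyp26b1* 16.7 and 14.9 RPM with B6 and F1 mothers.

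The F1 crosses were compared by edgeR, which called 3788 of 14625 genes (25.9%), and of the 9 members 3 were called. *Crabp2* was lower in B6 × Cast, where it ranged from 395 to 627 RPM around a median of 479, than in Cast × B6, where it ranged from 667 to 1091 RPM around a median of 813, and the groups did not overlap. The log2 difference was -0.82 (edgeR adjusted p = 0.00159). *Crabp1* ran from 819 to 1104 RPM in B6 × Cast and from 966 to 1838 RPM in Cast × B6, a log2 difference of -0.63 (edgeR adjusted p = 0.00929). *Rbp4* ran from 21.9 to 63.1 RPM and from 15.0 to 30.5 RPM, a log2 difference of 0.68 in the other direction (edgeR adjusted p = 0.00958).

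The crosses also differed in age. Somite numbers were 48 to 63 in B6 × Cast and 41 to 48 in Cast × B6, where they were recorded. The directions for *Crabp2*, *Crabp1* and *Rbp4* are those of their correlations with somite number over all N2 embryos. For *Crabp1* and *Rbp4* the sign turned with the mother where lane was not removed, and did not with lane removed. The litters nearest in age were also compared, litter 5 of B6 × Cast (48 to 50 somites) and litter 2 of Cast × B6 (46 to 48). Embryo 2 of the latter had no somite number. With a single litter of each cross, cross and litter cannot be told apart. In this fit 1549 of 14493 genes (10.7%) were called, and no member was. The differences were -0.30 for *Crabp2* (edgeR adjusted p = 0.0755), -0.05 for *Crabp1* (0.757) and 0.21 for *Rbp4* (0.273). The summed liver markers, which also rise with somite number, averaged 2159 ± 977 RPM in B6 × Cast and 1041 ± 388 RPM in Cast × B6.

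*Retsat* differed by 0.22 (edgeR adjusted p = 0.0507) and *Rdh10* by -0.41 (0.0689). *Retsat* passed by DESeq2 (0.21, adjusted p = 0.0344) and by edgeR with no filter on low counts (0.26, adjusted p = 0.0284), and *Rdh10* passed by neither (0.0552 and 0.126). Without embryo 1 of Cast × B6 litter 1, which stood apart in *Aldh1a2*, both passed (0.25, edgeR adjusted p = 0.0314, and -0.46, 0.0470), so that 5 members were called, beside 23.3% of all genes. *Aldh1a2* was 7.02 ± 0.978 RPM in B6 × Cast and 13.3 ± 15.3 RPM in Cast × B6, where that embryo held 49.8 RPM and the others 5.83 to 17.5 RPM (edgeR adjusted p = 0.0842). *Cyp26b1* was 17.4 and 17.5 RPM in the crosses (edgeR adjusted p = 0.792). *Aldh1a3* (0.906 and 1.06 RPM) and *Cyp26a1* (0.588 and 0.883 RPM) were near the limit of detection, with adjusted p of 0.271 and 0.301 by edgeR.

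The members were compared with each other and with all genes over 154 N2 embryos by Spearman correlation after lane was removed, as a description, since the embryos share lanes and depth. *Crabp1* and *Crabp2* were the most alike pair, at rho = 0.57. *Crabp2* and *Rbp4* stood at -0.24, and *Aldh1a2* and *Cyp26b1*, which make and clear retinoic acid, at 0.23. Of all genes, *Rbp4* was most like *Afp* (0.74), which encodes alpha-fetoprotein, and *Gsn* (0.73). *Retsat* was most like *Mthfd2* (0.71) and *Fkbp9* (0.65), both on its own chromosome. *Crabp1* was most like *Trim28* (0.68) and *Rbm14* (0.65), *Crabp2* like *Fam64a* (0.65) and *Rbpms* (0.62), *Aldh1a2* like *Zdhhc16* and *Eid2* (0.67 each), and *Cyp26b1* like *Rbpj* (0.64) and *Twist1* (0.63).

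Of 48 other retinoid pathway and response genes, listed by role, 21 could be tested for allele fraction and 5 were called, 4 toward B6 and 1 toward Cast, near the 18.9% of all genes, with a median BAF of 0.53 beside 0.50 over all genes. The B6 allele was higher for the dehydrogenases and reductases *Adh5* (BAF 0.800, adjusted p = 4.38e-04), *Dhrs4* (0.693, adjusted p = 8.95e-20) and *Rdh13* (0.615, adjusted p = 2.28e-13). The Cast allele was higher for *Lpl* (0.368, adjusted p = 0.00105), the lipoprotein lipase.

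By own genotype 10 of 25 were called, 4 higher and 6 lower in heterozygous embryos, near the 36.2% of all genes. *Adh5* (log2 difference -0.32, q = 6.57e-06) and *Rdh13* (-0.31, q = 2.53e-06) fell with a Cast copy, as did *Hoxd4*, a homeobox gene that responds to retinoic acid (-0.55, q = 9.57e-15). *Meis2*, another homeobox gene, rose (0.24, q = 1.83e-04).

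Against somite number 10 of 25 were called, 6 rising and 4 falling, beside 22% of all genes. 5 of the 7 receptors and carriers rose, beside 14.1% of all genes, among them the retinoid X receptors *Rxrg* (rho = 0.42, q = 4.81e-06) and *Rxra* (0.29, q = 0.00324). *Ttr*, which encodes transthyretin, the partner of the *Rbp4* protein in blood and 1 of the liver markers above, rose with rho = 0.57 (q = 1.17e-11). *Hoxd4* fell (-0.31, q = 0.00201). With lane removed 4 of 25 were called, beside 11.5% of all genes, and *Rxrg* was the only receptor among them (0.32, q = 0.00400). Without lanes K to N 4 of 25 were called too, beside 14.8%, with *Rxrg* (0.45, q = 6.26e-05) and *Rxra* (0.30, q = 0.0193) as the receptors.

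By mother 0 of 25 were called, beside 5.03% of all genes. Between the F1 crosses edgeR called 9 of 37, 4 higher and 5 lower in B6 × Cast, near the 25.9% of all genes. *Ttr* was higher by 1.00 (edgeR adjusted p = 0.00192), *Rxrg* by 0.83 (4.44e-04) and *Rxra* by 0.33 (0.00960). *Cdx1*, a homeobox gene of the posterior embryo, was lower (log2 difference -1.19, edgeR adjusted p = 0.00834). BAF against somite number gave 0 calls of 9.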

How the data were processed

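Single whole embryos were profiled by 3SEQ. As the methods of the study and the submitters' processing notes give it, the authors trimmed poly(A) stretches and shortened the HiSeq F1 reads to the GAIIx length, mapped reads with Bowtie2 to mm9 and to a Cast genome built from published SNPs, discarded reads with close second hits, and deposited raw counts of reads on RefSeq exons. They also deposited allele votes, estimated counts in which a read gives each of its SNPs an equal share of 1 vote, and genotype codes from a hidden Markov model. The runs of an F1 embryo came as 1 column. Whether counting used strand is not given in the sources used here.

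RPM was computed from the counts over all 22033 genes. The labels gave each embryo its group, litter, lane and somite number. The members and gene lists were chosen with earlier results of these data known. Named beside the members are the 4 list genes called with the smallest p in each comparison, the 5 genes off chromosome 6 and 3 on it with the smallest p by *Retsat* genotype, and the 2 genes most like each member above 5 RPM. *Tgoln1* was chosen for its position, after its values were seen.

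Genotype tests used 147 N2 embryos and log2(RPM + 1) residuals after lane, sex by *Xist*, somite number and 15 principal components, with the rank-sum test. Allele fractions used the paired test. F1 crosses used edgeR 4.0.16 (quasi-likelihood, TMM). DESeq2 1.42.0 and limma 3.58.1 in R 4.3.3 were alternatives, and the other tests used scipy 1.17.1. p-values were adjusted over all genes tested, and permutation tests of single members, where no fit across genes was made, over the tests of that kind. Embryos of a litter share a mother, and tests over embryos treat them as separate. The fits were tested on simulated data. RPM intervals and allele shares carry counting error that grows as depth falls. 8 N2 samples that the labels place in no group (5 to 1210811 reads) and 6 without genotype were left out.

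Added after seeing the data were fits without lanes K to N, with embryos of at least 1000000 reads, without embryo 1 of Cast × B6 litter 1, and genotype tests with litter as a block. Columns not used numbered 0.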

Additional observations from a re-analysis of the deposited data

Results flagged for a closer look

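*Aldh1a2*, the main retinaldehyde dehydrogenase of the early embryo, was at 49.8 RPM in embryo 1 of Cast × B6 litter 1 and at 5.83 to 17.5 RPM in the other 7 embryos of that cross. Its gap to the next embryo was 0.734 of the range of the group, above Dixon's 95% critical value for 8 samples. It was the 1 flag among 29 groups of embryos and members examined, where chance flags about 1 in 20. The same embryo had the highest *Cyp26a1* of its cross, 2.52 RPM, and the lowest *Cyp26b1*, 12.0 RPM, with 34537191 reads in all. In it 117 of 9728 genes at 5 RPM were at least 2 times above the highest of the other 7, beside 0 to 8 genes for each of those. Its *Aldh1a2* votes were 498 for B6 and 545 for Cast, a BAF of 0.477. Its summed liver and yolk sac endoderm markers, 555 RPM, were below the 689 to 1479 RPM of the other 7, its summed primitive erythroid markers, 133011 RPM, were above their 53581 to 100990 RPM, and its neuronal markers, 634 RPM, were below their 858 to 989 RPM. Its cartilage markers (604 RPM against 691 to 871) and lens markers (5.76 RPM against 6.25 to 22.3) were below, and its trophoblast and decidua markers (0.579 RPM against 0 to 0.105) above, those of the other 7. Within their range were its motor neuron (23.1 RPM, 18.9 to 32.7), skeletal muscle (484 RPM, 325 to 524) and heart markers (772 RPM, 597 to 829). The part of any of these in the *Aldh1a2* value was not tested.

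The *Crabp2* BAF of the F1 embryos lay -0.0258 from that of the heterozygous N2 embryos (permutation test, adjusted p = 5.6e-04), at 0.5264 against 0.552, with both on the B6 side of 0.5. Generation, read length and depth differ together between these groups and cannot be told apart.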

How the results depend on the processing

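Replicate numbers in the labels are embryo numbers within litters and pair no embryos across groups, but litters hold both genotypes. With litter as a replicate block in place of the other covariates, own genotype called 1 of the 5 members (*Crabp2*) against 2, and *Retsat* genotype 0. Of the single-member values recomputed under alternatives, 261 kept their direction and their side of the threshold, 19 passed only under the alternative, 9 no longer passed, and 53 values that no fit called changed sign or moved. 4 turned direction where a call was involved: *Crabp1* by own genotype (0.0656 with no covariates, 0.0285 with edgeR and lane, 0.00889 with the litter block) and *Aldh1a2* against somite number (0.43 with F1 mothers alone). The number of members called changed as follows, with the main number first. Allele fraction gave 0, and 1 (*Crabp2*) in N2 embryos alone. Own genotype gave 2, and 1 with lane alone, with 5 components, with no covariates, with a pseudocount of 0.1 or with a minimum of 1 RPM, and 0 with edgeR, whose p-values were adjusted over another family of tests. Somite number gave 1, and 3 with lane removed, with B6 mothers, with F1 mothers or without lanes K to N, 4 with edgeR and lane, and 2 with DESeq2 size factors or a minimum of 1 RPM. Mother gave 0, and 1 (*Crabp1*) with edgeR, DESeq2, Benjamini-Hochberg adjustment or embryos of at least 1000000 reads. The F1 cross gave 3, and 4 with DESeq2 or no filter, 0 between the single litters of 46 to 50 somites and 5 without embryo 1 of Cast × B6 litter 1. Parent of origin gave 1, and 0 on litter means. The cause was not tested. Over all genes, own genotype with no covariates called 1779 against 3521. *Retsat* genotype called 34 with lane alone, 28 with the litter block, 37 without lanes K to N and 14 with no covariates against 64. Somite number called 174 on litter means, 5161 with B6 mothers and 2316 with F1 mothers against 2206. Mother called 0 on litter means, 1 with lanes as a block in limma, 212 and 24 on flowcells 1 and 2, 291 with embryos of at least 1000000 reads, 1227 without lanes K to N, 2614 with edgeR, 2997 with DESeq2 and 3073 with Benjamini-Hochberg adjustment against 490. Allele fraction called 1105 in F1 embryos alone and 2889 with Benjamini-Hochberg adjustment against 1714. The cause of these shifts was not tested either.

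Depth limited *Aldh1a3*, *Cyp26a1* and *Rdh10*, with 0 reads in 49, 70 and 21 of 154 N2 embryos, and allele votes limited *Aldh1a3*, *Cyp26a1* and *Cyp26b1*. Mother and lane, and cross and age in F1, cannot be told apart.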

Other observations

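Of the 8 N2 samples placed in no group, 7 had under 20000 reads. The deepest had 1210811 reads and held 73.5 RPM of *Retsat*, with 5.99 votes for B6 and 32 for Cast, 560 RPM of *Crabp1* with 102 votes for B6 and 120 for Cast, 590 RPM of *Crabp2* with 319.67 and 236.99, and 14.9 RPM of *Rbp4* with 18 and 0. It had 2 reads of *Aldh1a2*, 4 each of *Cyp26a1* and *Cyp26b1*, and 0 of *Aldh1a3* and *Rdh10*.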
